A study of Mus musculus with 5 samples.

Results

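Lysine acetylation of histones and other proteins is set by enzymes that write it, enzymes that remove it and proteins that read it. The genes described here are 43 such genes, fixed by name: 11 zinc-dependent histone deacetylases, 7 sirtuins, 9 acetyltransferases, 6 bromodomain readers and 10 subunits of corepressor complexes that carry deacetylases to DNA. All 43 were found among the 24808 named genes of the tables, and all 43 passed the filter on low counts that left 13590 genes for testing. Liver RNA came from C57BL/6 mice, aged 16 weeks, in 2 groups. The CCl4 group (3 libraries) had received carbon tetrachloride, which damages hepatocytes and, given repeatedly, leads to scarring. The CCl4+givinostat group (2 libraries) had received carbon tetrachloride and givinostat, a drug that blocks zinc-dependent deacetylases, so that every liver had been given CCl4 and no liver without it enters the comparison. The sources used here give neither dose, schedule nor sex, and do not state that each library is a separate animal, so p-values measure the spread between these libraries only. The series title places the comparison in the setting of liver fibrosis and stellate cell activation, and the question asked of these genes is whether livers given the inhibitor carried other levels of the transcripts that encode its targets and their partners. Transcripts were measured, not enzyme activity or acetylation.

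Acetyltransferases move an acetyl group from acetyl-CoA to a lysine, which loosens chromatin and makes a docking site for bromodomains. Zinc-dependent deacetylases take the group off again, in class I mostly inside the corepressor complexes NuRD, Sin3, CoREST and NCoR. Class IIa enzymes have weak catalytic activity of their own and shuttle between nucleus and cytoplasm. Sirtuins remove acyl groups at the cost of NAD, which ties them to the energy state of the cell, and several of them work in mitochondria. In hepatocytes Hdac3 bound to NCoR restrains lipid genes, and in stellate cells deacetylases are known to take part in activation.

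Totals were 18608002 to 21739034 counts per library, of which the 43 genes took 0.133 to 0.164%. All 10 hepatocyte markers were present and together reached 99495 to 107312 CPM (counts scaled to a common library size). CCl4 replicate 1 stood apart from the other CCl4 libraries. On the first principal component of all genes (38.0% of the variance) it lay at -33.9, CCl4 replicates 2 and 3 lay at 19.5 and 35.0, and the givinostat libraries lay between, at -6.47 and -14.1. CCl4 replicates 1 and 3 were thus about equally far out. On the second component (30.6%) the treatment groups lay apart, with CCl4 replicates 1 to 3 at -28.4, -13.6 and -7.37 and the givinostat libraries at 33.2 and 16.2. Counts of higher and lower fitted values, over the 43 genes and over each further list, are therefore given with and without CCl4 replicate 1. In whole tissue, fewer cells of a type and less RNA per cell cannot be told apart.

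None of the 43 genes passed the quasi-likelihood test of edgeR after adjustment (Benjamini-Hochberg) over all genes, and the smallest adjusted p among them was 0.603. The same test called 1 gene of 13590, or 0.00736%. At an unadjusted p under 0.05 there was 1 member (2.33%), Mta3, against 7.45% of all genes tested. DESeq2 called 0 of the 43, against 1.09% of all genes, and Mta3 alone was at its unadjusted p under 0.05, against 7.09%. Fitted values lay lower with givinostat for 31 of the 43 (53.8% of all genes), with a median log2 fold change of -0.09 against -0.02 over all genes. The median absolute log2 fold change was 0.12 for the members and 0.18 for all genes. The 95% interval of the fold change lay inside 2-fold in both directions for 40 of the 43, and for 69.9% of all genes. Hdac7, Hdac9 and Rest were the exceptions. Inside 1.5-fold lay the intervals of 22 members, and of 33.8% of all genes.

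**Figure D1:**
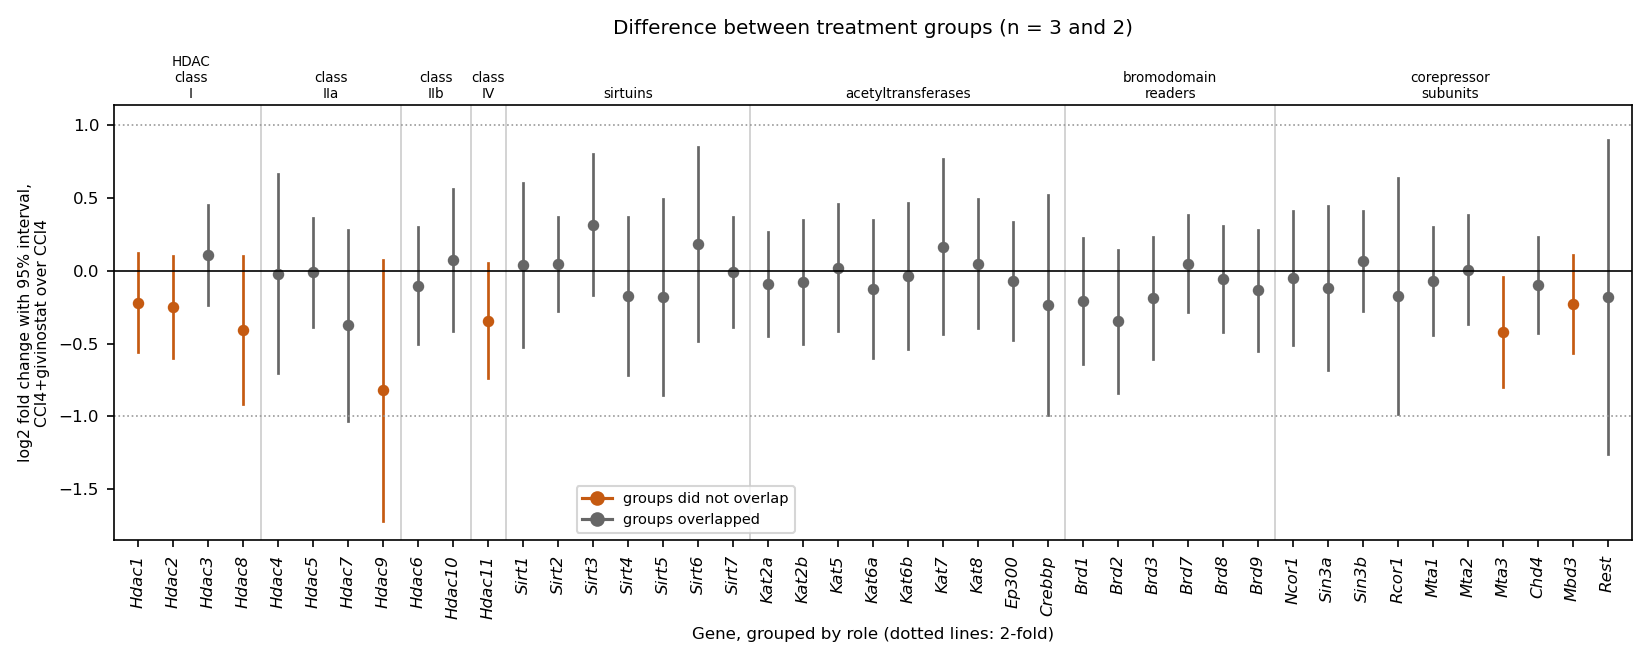
Log2 fold change of CCl4+givinostat (n = 2) over CCl4 (n = 3) for each of the 43 genes, with bars for the 95% interval and dotted lines at 2-fold. Orange marks the 7 genes whose libraries did not overlap between the groups, all lower with givinostat, and only the bar of Mta3 stays clear of 0.

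Without CCl4 replicate 1, edgeR called 235 of 13453 genes (1.75%) and again 0 of the 43, with 0.21 as the smallest adjusted p. At an unadjusted p under 0.05 there were then 5 members (11.6%), against 15.9% of all genes. They were Hdac7, Hdac9, Hdac11 and Mta3 on the lower side (all genes 8.09%) and Kat7 on the higher side (7.8%). The groups did not overlap for 12 members lower and 6 higher (41.9%, all genes 47.8%). Fitted values lay lower for 23 of the 43, and the median was -0.03.

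Groups that did not overlap were found for 7 of the 43 genes, and in each the givinostat libraries were the lower ones. They were Hdac1, Hdac2, Hdac8, Hdac9, Hdac11, Mta3 and Mbd3. That is 16.3% of the members, against 11.7% of all genes lower without overlap and 23.4% without overlap in either direction. Of the 7, 5 are zinc-dependent deacetylases. Promoter sequence is shown for Hdac2 and Hdac9. Only these of the 7 had a promoter entry whose bases before the start lie clear of annotated exons. Hdac1 and Mta3 had no entry, and the bases before Hdac8, Hdac11 and Mbd3 overlap annotated exons. The 250 bases before the start, from RefSeq on GRCm38.p6, are written 5′ to 3′ on the strand of the gene, with CG dinucleotides in capitals. Hdac2 is at chr10:36974294-36974543, plus strand, and Hdac9 at chr12:34917096-34917345, minus strand.
Hdac2: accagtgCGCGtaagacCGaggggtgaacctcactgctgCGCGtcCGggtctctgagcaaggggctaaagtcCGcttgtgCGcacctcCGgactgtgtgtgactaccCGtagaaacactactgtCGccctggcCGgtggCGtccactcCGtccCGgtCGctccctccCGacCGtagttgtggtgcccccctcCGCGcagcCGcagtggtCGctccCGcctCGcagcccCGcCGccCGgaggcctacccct
Hdac9: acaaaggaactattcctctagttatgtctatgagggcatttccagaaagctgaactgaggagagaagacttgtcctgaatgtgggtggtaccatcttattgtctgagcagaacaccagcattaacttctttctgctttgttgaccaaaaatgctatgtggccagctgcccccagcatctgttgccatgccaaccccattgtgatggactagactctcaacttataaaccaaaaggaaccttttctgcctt
The Hdac2 stretch holds 27 CG dinucleotides and a G+C content of 68.8%, and the Hdac9 stretch holds 0 and 44.4%. A second Hdac9 start in the same table has 2. Among the 36 members with an entry the median was 21.5, taking the richest start of each gene, against 6 over the 27025 genes with an entry. At least 10 were found for 32 members (88.9%) and for 40.2% of all those genes. The GC box, GGGCGG on either strand, was present before 30 of the 36 members (83.3%) and before 35.4% of all genes, and the Hdac2 stretch has 1. CCAAT on either strand was present before 16 members (44.4%, all genes 37.5%). The palindromes TGACGTCA and CACGTG were present before 0 and 2 members (all genes 1.77% and 6.86%). These letters overlap in part, since a GC box contains a CG dinucleotide, and they describe sequence only. The members all passed the filter on low counts, while the 27025 genes were not filtered by counts, so the sets are unlike.

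Class I deacetylases are the nuclear enzymes that do most histone deacetylation. Hdac1 and Hdac2, near twins that sit together in NuRD, Sin3 and CoREST, both had a lower fitted value. Hdac1 stood at 31.0, 32.2 and 31.9 CPM in CCl4 replicates 1, 2 and 3 and at 25.8 and 28.6 CPM in givinostat replicates 1 and 2. Hdac2 stood at 34.3, 30.0 and 32.3 CPM in the CCl4 livers, against 26.2 and 28.0 CPM in the givinostat livers. Both givinostat libraries lay below all CCl4 libraries for either gene, by small margins. The log2 fold changes were -0.22 ± 0.15 and -0.25 ± 0.15 (SE), with edgeR adjusted p-values of 0.855 and 0.827. Their 95% intervals ran from 0.679 to 1.09-fold for Hdac1 and from 0.66 to 1.07-fold for Hdac2. Per kilobase of exon, Hdac1 exceeded Hdac2 by 1.88 to 2.23 times in the 5 libraries, with the givinostat ratios of 2.05 and 2.13 inside the CCl4 range.

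Hdac8, a class I enzyme that works outside those complexes and deacetylates the cohesin subunit Smc3, had the largest difference of its class. It stood at 7.16, 8.37 and 7.27 CPM across CCl4 replicates 1 to 3, then 5.21 and 6.24 CPM under givinostat, again without overlap. Its log2 fold change was -0.41 ± 0.22 (SE, edgeR adjusted p = 0.796). Hdac3, the catalytic subunit of the NCoR complexes, had the highest level per kilobase of the class at 19.1 CPM per kb over the 5 libraries, and Hdac8 the lowest at 3.54. Hdac3 was at 37.3, 38.4 and 37.3 CPM in the CCl4 group, while givinostat livers had 43.9 and 37.2 CPM. The groups overlapped, and givinostat replicate 1 was the highest library. The fitted value of Hdac3 lay higher (0.11 ± 0.15, SE), so the class held 3 members lower and 1 higher, with a median of -0.23.

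Class IIa deacetylases bind MEF2 transcription factors and leave the nucleus when phosphorylated. All 4 had a fitted value below 0, with a median of -0.20, and only Hdac9 had groups that did not overlap. Without CCl4 replicate 1, 3 lay below 0 and Hdac4 above it. The groups of Hdac7 and Hdac9 then did not overlap (50% of the class, all genes 47.8%). Hdac9 (chromosome 12, 34047580 to 34917095, minus strand, GRCm38) was the scarcest of the 43 genes, its CCl4 counts being 29, 45 and 30 and its givinostat counts 19 and 22. Scaled by depth that was 1.37, 2.17 and 1.56 CPM against 0.934 and 0.988 CPM. The difference, -0.82 ± 0.39 in log2 (SE, edgeR adjusted p = 0.734), was the largest of the 43, and its 95% interval ran from 0.305 to 1.05-fold. Per kilobase, its level stood at percentile 2.3 among the genes tested.

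Hdac7, known for its roles in endothelial cells and thymocytes, stood at 7.06, 10.5 and 13.4 CPM in the CCl4 livers, against 7.22 and 8.66 CPM in the givinostat livers. The CCl4 libraries themselves spanned 1.89-fold and enclosed both givinostat values. In log2 the difference was -0.37 ± 0.28 (SE, edgeR adjusted p = 0.867), and -0.59 ± 0.21 without CCl4 replicate 1 (edgeR adjusted p = 0.21). The 10 sinusoidal endothelial markers summed to 249.95, 411 and 353 CPM in the CCl4 libraries and to 175 and 385 CPM with givinostat, none of them at 0. CCl4 replicate 1 was the lowest CCl4 library for Hdac7 and for all 10 markers, and the part of these cells in the Hdac7 values was not tested. Hdac5 had the highest level of the class, 5.02 CPM per kb against 0.131 for Hdac9. It was at 27.3, 30.5 and 27.0 CPM across CCl4 replicates 1 to 3, then 30.8 and 25.5 CPM under givinostat, so the groups overlapped widely. Hdac4 averaged 11.04 ± 3.66 CPM (SD, n = 3) and 10.9 ± 2.89 CPM (SD, n = 2). Hdac5 exceeded Hdac4 per kilobase by 2.58 times in CCl4 replicate 1 and 2.84 times in givinostat replicate 2, and by 4.49 to 5.01 times in the remaining libraries.

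Class IIb holds Hdac6, the cytoplasmic tubulin deacetylase, and Hdac10, a polyamine deacetylase. Hdac6 was at 14.6, 17.2 and 17.8 CPM in the CCl4 group, while givinostat livers had 16.3 and 14.6 CPM. Hdac10 was at 7.44, 9.53 and 9.25 CPM and at 10.1 and 8.35 CPM. The groups overlapped for both genes, with log2 fold changes of -0.10 ± 0.17 and 0.08 ± 0.21 (SE). Their levels per kilobase, 3.89 and 3.56 CPM per kb, differed by less than the spread between libraries.

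Hdac11, the sole class IV enzyme, removes long fatty acyl groups from lysines. It stood at 31.3, 40.1 and 33.3 CPM in the CCl4 livers, against 29.3 and 25.8 CPM in the givinostat livers. The lowest CCl4 library and the highest givinostat library were close, but the groups did not overlap. In log2 the difference was -0.34 ± 0.17 (SE, edgeR adjusted p = 0.762), and -0.42 ± 0.15 without CCl4 replicate 1 (edgeR adjusted p = 0.22). Of its exonic bases, 26% lie opposite other gene models (Gm14573 and Gm44002) on chromosome 6. Whether counting used strand is not stated, so its reads are uncertain.

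Summed over the 11 genes, zinc-dependent deacetylase transcripts reached 72.0, 78.1 and 74.6 CPM per kb in the CCl4 libraries and 70.3 and 66.7 CPM per kb with givinostat. The givinostat sums were the lowest of the 5. Class I made up 59.1 to 63.2% of the sum, class IIa 11.4 to 11.9%, class IIb 9.02 to 11.3% and Hdac11 14.6 to 19.4%. The split by class hence differed little between libraries, and the class I, IIa and IIb ranges of the groups overlapped. Hdac11 took 15.7 and 14.6% with givinostat, below the 16.4, 19.4 and 16.8% of the CCl4 libraries. Of the 11 genes, 9 had a lower fitted value (median -0.22) and 5 had lower groups without overlap (45.5%), where 11.7% of all genes did. Without CCl4 replicate 1, a count added after seeing the data, it was 7 of 11 (63.6%), where 23.5% of all genes did. That library was the lowest CCl4 library for 8 of the 11 (all genes 40.4%). Leaving it out therefore raises the lowest CCl4 value for those 8, and the second count is no separate evidence. No test of this list was made, and no single enzyme passed the adjusted threshold in either fit. Markers of several other cell types also had lower fitted values with givinostat. Lower values were found for 10 of 10 macrophage markers (median log2 fold change -0.22), 9 of 10 sinusoidal endothelial markers (-0.28), 8 of 9 tested T and NK cell markers (-0.52), 5 of 6 tested cholangiocyte markers (-0.93) and 6 of 6 mesothelial markers (-3.91). Without CCl4 replicate 1 these counts were unchanged, and the medians were -0.46, -0.44, -0.72, -0.93 and -3.78. Stellate cell and myofibroblast markers were lower for 8 of 13 (-0.16), and proliferation markers for 4 of 6 tested (-0.34). Fewer were lower among hepatocyte markers (4 of 10, median 0.01), B cell markers (1 of 5, 0.40) and tested neutrophil markers (2 of 5, 0.21). For these lists, in the same order, the medians without that library were -0.062, -0.46, 0.023, 0.59 and -0.24. The numbers lower were then 8 of 13, 5 of 6, 5 of 10, 1 of 5 and 4 of 5. The 6 mesothelial markers summed to 6.74 to 16.6 CPM in the CCl4 group and 1.23 to 1.89 CPM in the givinostat group, and the 7 cholangiocyte markers to 48.5 to 54.2 and 36.3 to 40.2 CPM, with none at 0 in every library. The part of these cells in the deacetylase values was not tested.

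**Figure D2:**
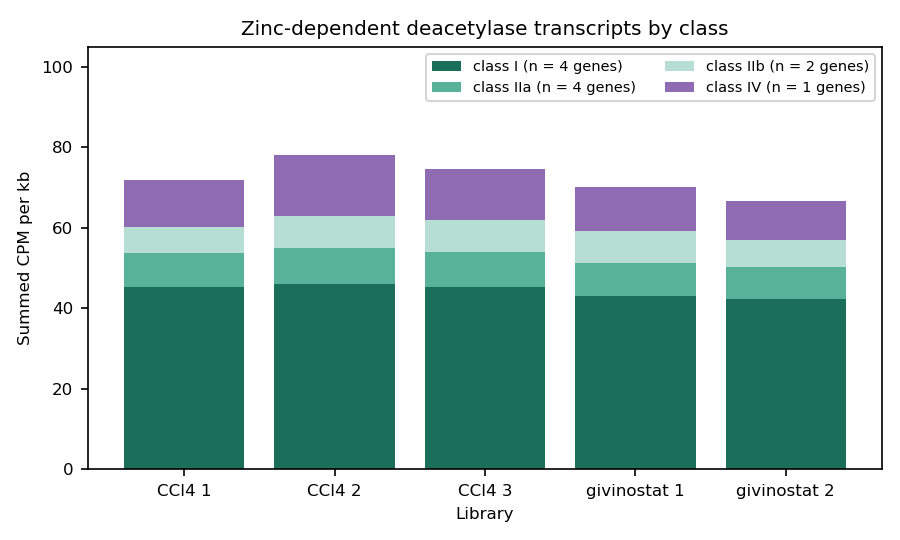
Summed level of the zinc-dependent deacetylases in each library, in CPM per kb of exonic length, stacked by class. The stacks reach 72.0, 78.1 and 74.6 in the CCl4 libraries and 70.3 and 66.7 in the givinostat libraries, with class I as the main block in every library.

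Sirtuins, which givinostat does not target, were mixed, with 4 fitted values higher and 3 lower and a median of 0.04. With all libraries, no sirtuin had groups that did not overlap. Without CCl4 replicate 1 there were again 4 higher and 3 lower (median 0.09). Then 2 were higher and 2 lower without overlap (57.1%, all genes 47.8%). Sirt3, the main mitochondrial deacetylase, was the most abundant of the family at 35.6 CPM per kb. It stood at 49.1, 58.3 and 60.2 CPM across CCl4 replicates 1 to 3, then 85.1 and 54.1 CPM under givinostat. Only givinostat replicate 1 was high, and givinostat replicate 2 lay inside the CCl4 range. The log2 fold change was 0.32 ± 0.21 (SE, edgeR adjusted p = 0.846), and it was -0.04 without givinostat replicate 1 and 0.61 without givinostat replicate 2. Opposite gene models, among them Psmd13, cover 12.4% of its exonic bases.

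The other mitochondrial sirtuins, Sirt4 and Sirt5, stood far lower, at 4.18 and 2.33 CPM per kb. Sirt5, which removes succinyl and malonyl groups, had a CCl4 mean of 7.21 ± 2.12 CPM (SD, n = 3), against 6.37 ± 1.00 CPM (SD, n = 2) for givinostat. Sirt4 was at 7.63, 9.67 and 9.51 CPM in the CCl4 group, while givinostat livers had 9.29 and 6.55 CPM, which overlap (log2 fold change -0.18 ± 0.24, SE). Sirt2, a mostly cytoplasmic tubulin deacetylase, varied little, between 43.1 and 47.3 CPM over all 5 libraries. Sirt1, the nuclear enzyme that acts on PGC-1alpha and p53, was at 21.6 CPM in CCl4 replicate 1 and at 13.2 to 18.5 CPM in the remaining 4. The chromatin-bound Sirt6 had the lowest level of the family (1.89 CPM per kb) and was at 4.502, 4.72 and 3.22 CPM in the CCl4 livers, against 5.55 and 3.91 CPM in the givinostat livers. The nucleolar Sirt7 lay between 27.9 and 34.4 CPM in all 5 libraries.

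Among the acetyltransferases 3 fitted values lay higher and 6 lower (median -0.07), and the groups overlapped for all 9. Without CCl4 replicate 1 this reversed to 7 higher and 2 lower (median 0.091). Then 1 was higher and 1 lower without overlap (22.2%, all genes 47.8%). Kat2b, the coactivator enzyme PCAF, had the highest level at 18.9 CPM per kb and exceeded its paralog Kat2a by 1.63 to 2.75 times. It was at 109, 74.0 and 85.6 CPM across CCl4 replicates 1 to 3, then 86.1 and 83.9 CPM under givinostat. Both givinostat values fell inside the CCl4 range. Kat6b, a MYST family enzyme, had the lowest level at 1.19 CPM per kb, with 11.3, 8.18 and 8.88 CPM against 8.60 and 9.88 CPM. Crebbp stood next at 1.25 CPM per kb, a difference smaller than the spread between libraries.

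Crebbp and Ep300 encode the paired coactivators CBP and p300, the main writers of acetylation at enhancers. Crebbp stood at 20.6, 13.8 and 8.78 CPM in the CCl4 group, while givinostat livers had 10.96 and 13.6 CPM, so the CCl4 libraries alone spanned 2.35-fold. Its log2 fold change was -0.23 ± 0.33 (SE, edgeR adjusted p = 0.953), and 0.12 without CCl4 replicate 1. Ep300 was at 35.7 CPM in CCl4 replicate 1 and at 26.8 to 30.4 CPM in the remaining libraries, and exceeded Crebbp per kilobase by 1.96 to 3.72 times. Kat7, the HBO1 enzyme that acetylates histone tails, stood at 26.9, 17.5 and 15.7 CPM in the CCl4 livers, against 18.8 and 26.1 CPM in the givinostat livers. CCl4 replicate 1 and givinostat replicate 2 were the high libraries. Its log2 fold change was 0.17 ± 0.26 (SE, edgeR adjusted p = 0.958), and 0.44 ± 0.19 without CCl4 replicate 1 (edgeR adjusted p = 0.289). For Kat2a, Kat5, Kat6a and Kat8, log2 fold changes lay between -0.12 and 0.05. Kat5, the TIP60 enzyme of DNA repair, shares 18.9% of its exonic bases with the opposite gene Rnaseh2c.

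The bromodomain readers had 5 lower fitted values and 1 higher (median -0.16), with overlapping groups throughout. Without CCl4 replicate 1 there were again 5 and 1, with a median of -0.078. Brd2, a BET protein that binds acetylated histones at promoters, had the highest level at 32.8 CPM per kb. It was at 229, 162 and 141 CPM across CCl4 replicates 1 to 3, then 134 and 145 CPM under givinostat. CCl4 replicate 1 was far above the others, and CCl4 replicate 3 lay between the givinostat libraries. The log2 fold change was -0.35 ± 0.21 (SE, edgeR adjusted p = 0.827), and -0.12 without CCl4 replicate 1. Its relative Brd3 had a CCl4 mean of 45.3 ± 5.08 CPM (SD, n = 3), against 39.8 ± 7.88 CPM (SD, n = 2) for givinostat, and Brd2 exceeded it per kilobase by 3.34 to 5.23 times. Brd1, a scaffold of MYST acetyltransferases, was at 43.9, 31.9 and 32.0 CPM against 30.2 and 31.9 CPM (log2 fold change -0.21 ± 0.19, SE). Brd7 and Brd9, both of SWI/SNF remodelling complexes, and Brd8 of the TIP60 complex had log2 fold changes between -0.13 and 0.05. The lowest level of the readers was that of Brd8 at 3.51 CPM per kb, with 20.1, 18.1 and 20.5 CPM against 19.1 and 18.6 CPM.

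Corepressor subunits had 8 lower fitted values and 2 higher (median -0.11), and held the member with the smallest p. Without CCl4 replicate 1 this turned to 4 lower and 6 higher (median 0.093). Mta2, Ncor1 and Rest were then higher without overlap, and Mta3 and Mbd3 lower (50%, all genes 47.8%). Mta3 (chromosome 17, 83706163 to 83821516, plus strand, GRCm38) encodes a subunit of NuRD, the complex that joins Hdac1 and Hdac2 to a nucleosome remodeller. It stood at 20.7, 23.0 and 20.0 CPM in the CCl4 group, while givinostat livers had 16.5 and 15.2 CPM. The groups did not overlap and the gap exceeded the spread within either. Its log2 fold change was -0.42 ± 0.16 (SE), with an unadjusted p of 0.0324 and an edgeR adjusted p of 0.603. The 95% interval ran from 0.576 to 0.969-fold. The sign held with each library left out, with values from -0.48 to -0.36. With CCl4 replicate 2 or either givinostat library left out, its unadjusted p was no longer under 0.05.

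With all libraries, the other MTA subunits of NuRD showed no such gap. Mta1 averaged 41.9 ± 4.71 CPM (SD, n = 3) and 39.9 ± 3.36 CPM (SD, n = 2), and Mta2 averaged 68.6 ± 9.62 and 68.9 ± 2.90 CPM. Per kilobase Mta2 exceeded Mta3 by 3.72, 2.55 and 3.25 times with CCl4 and by 3.95 and 4.55 times with givinostat, 2 ranges that did not overlap. The Mta2 means were alike, but Mta2 varied between CCl4 replicates 1 to 3 (79.0, 60.0 and 66.7 CPM). The ratio thus draws on the spread of Mta2 and on the same Mta3 values, and is no separate result. Mbd3, which NuRD needs to assemble, had the highest level per kilobase of all 43 genes (46.8 CPM per kb). It was at 89.4, 103 and 86.1 CPM in the CCl4 livers, against 79.8 and 79.0 CPM in the givinostat livers. Every givinostat value lay under every CCl4 value, and the log2 fold change was -0.23 ± 0.15 (SE, edgeR adjusted p = 0.843). Chd4, the remodelling ATPase of NuRD, averaged 139 ± 10.7 CPM (SD, n = 3) and 130.1 ± 10.2 CPM (SD, n = 2), a difference smaller than the spread.

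Rest, the DNA-binding repressor of neuronal genes that recruits CoREST and Sin3, stood at 13.1, 4.72 and 4.68 CPM across CCl4 replicates 1 to 3, then 5.31 and 7.95 CPM under givinostat. CCl4 replicate 1 was 2.81-fold above CCl4 replicate 3, the widest span within that group among the 43 genes. With all libraries the log2 fold change was -0.18 ± 0.47 (SE, edgeR adjusted p = 0.981), and without CCl4 replicate 1 it was 0.50 ± 0.27 (edgeR adjusted p = 0.411). Rest and Rcor1, the CoREST scaffold, had the lowest levels of the corepressors (0.991 and 1.03 CPM per kb) and did not differ beyond their spread. Rcor1 was at 9.05, 5.39 and 4.001 CPM in the CCl4 group, while givinostat livers had 4.91 and 6.02 CPM. Sin3a, the Sin3 scaffold, was at 26.5, 15.9 and 17.5 CPM against 20.1 and 16.8 CPM, and Ncor1, the nuclear receptor corepressor, at 99.4, 67.5 and 69.3 CPM against 71.2 and 80.9 CPM. All 4 genes were highest in CCl4 replicate 1. Sin3b lacked that peak (50.9 to 60.8 CPM over the 5 libraries) and exceeded Sin3a per kilobase by 2.34 times in CCl4 replicate 1 and by 3.35 to 4.15 times in the remaining libraries.

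**Figure D3:**
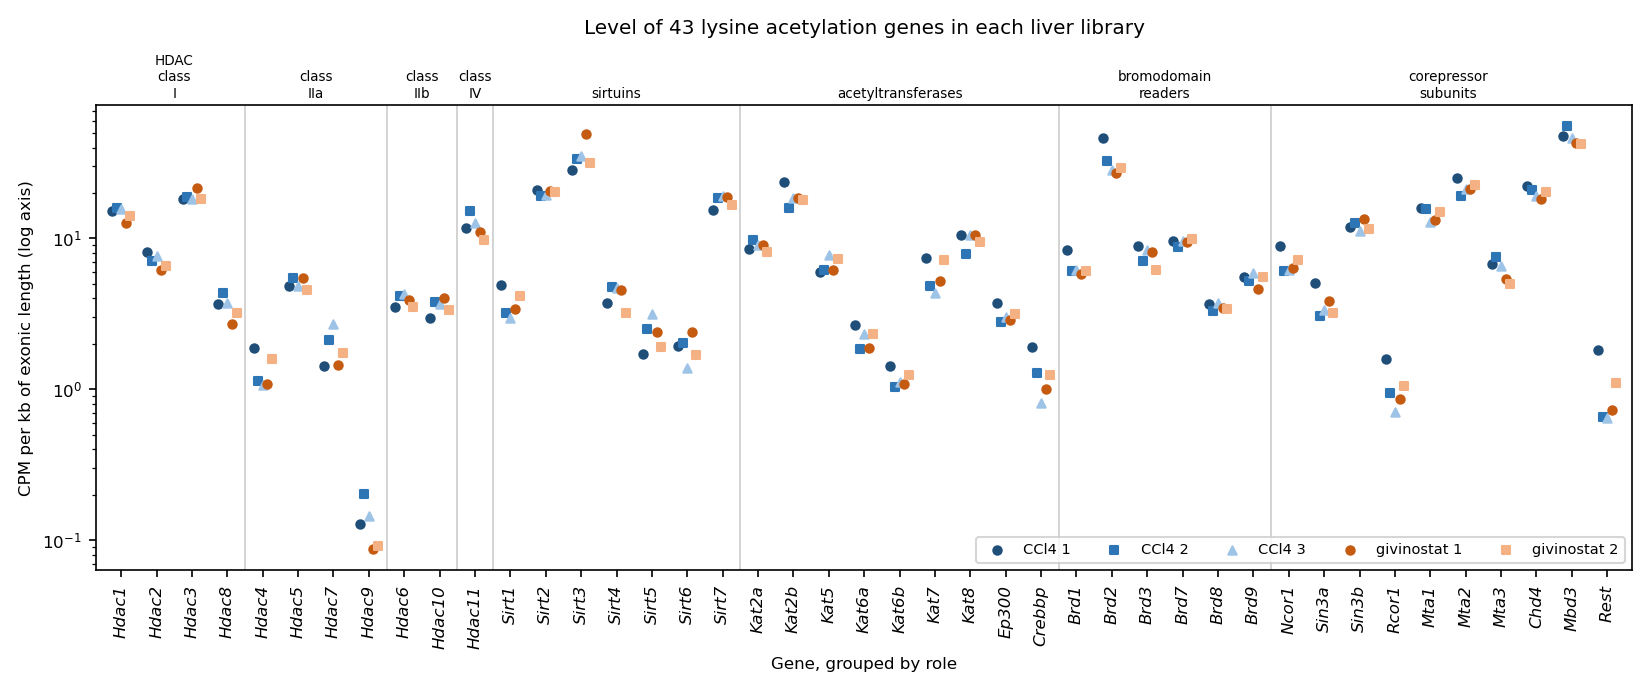
Level of each of the 43 genes in the 5 libraries, in CPM per kb of exonic length on a log axis, grouped by role (blue for CCl4, orange for CCl4+givinostat). Levels run from Hdac9 at 0.131 to Mbd3 at 46.8 CPM per kb, and the dark blue circle of CCl4 replicate 1 lies above its group for Rest, Rcor1, Crebbp and Brd2.

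CCl4 replicate 1 differed from the other libraries for many of the 43 genes. It was the highest of all 5 libraries for 20 of the 43 genes (46.5%), against 28.2% of all genes tested. Among the 3 CCl4 libraries it was the highest for 21 members (48.8%, all genes 39.4%) and the lowest for 14 (all genes 40.4%). Counts by role are given as a description, with no test. It was the highest CCl4 library for 7 of 10 corepressor subunits, 6 of 9 acetyltransferases and 4 of 6 bromodomain readers. For 8 of 11 zinc-dependent deacetylases and 4 of 7 sirtuins it was the lowest. In log2 CPM, CCl4 replicate 1 exceeded the mean of the remaining 4 libraries by 1.23 for Rest, 0.84 for Rcor1, 0.83 for Crebbp, 0.66 for Brd2 and 0.64 for Hdac4. It lay below that mean by values of -0.52 for Sirt5, -0.45 for Hdac7 and -0.37 for Sirt3.

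**Figure D4:**
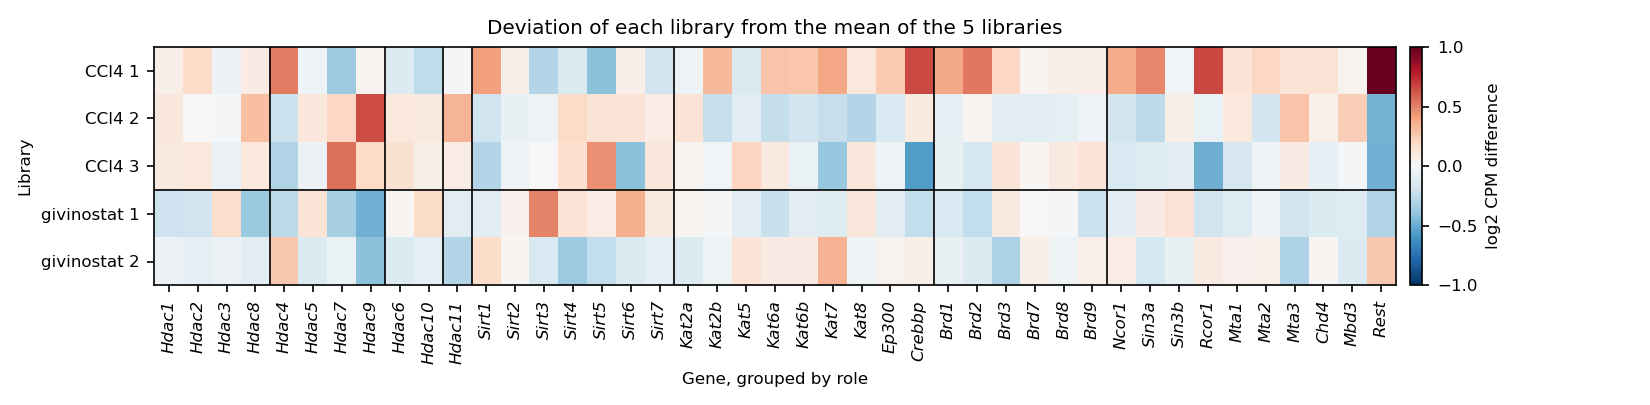
Deviation of each library from the mean of the 5 libraries, in log2 CPM, for the 43 genes in order of role (red above the mean, blue below). The top row, CCl4 replicate 1, is mostly red among acetyltransferases, readers and corepressors, and 30 of its 43 cells lie above the mean.

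Genes with longer transcripts tended to be the ones that were high in that library. Across the 43 genes, Spearman's rho between exonic length and the offset of CCl4 replicate 1 from the remaining libraries was 0.59, and 0.28 across 13413 genes with a length. For the same measure in CCl4 replicates 2 and 3 and givinostat replicates 1 and 2 it was -0.32, -0.38, -0.42 and 0.30 across the members. These are descriptions across genes, whose points share the same 5 libraries and are not independent, and the offsets of the libraries depend on each other. Some marker lists of other cells were also lowest in this library. The 6 neutrophil markers summed to 14.4 CPM in CCl4 replicate 1 and to 59.1 to 69.0 CPM in the remaining 4, and the 10 macrophage markers to 511 CPM against 611 to 1057 CPM. The B cell, proliferation and hepatocyte sums were also lowest there (5.73, 12.4 and 99495 CPM). The stellate, endothelial, T and NK, cholangiocyte and mesothelial sums (424, 249.95, 9.19, 53.4 and 15.5 CPM) lay inside the range of the remaining libraries. None of these markers was at 0 in every library. The part of transcript length, of RNA quality or of these cells in the values of the 43 genes was not tested.

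**Figure D5:**
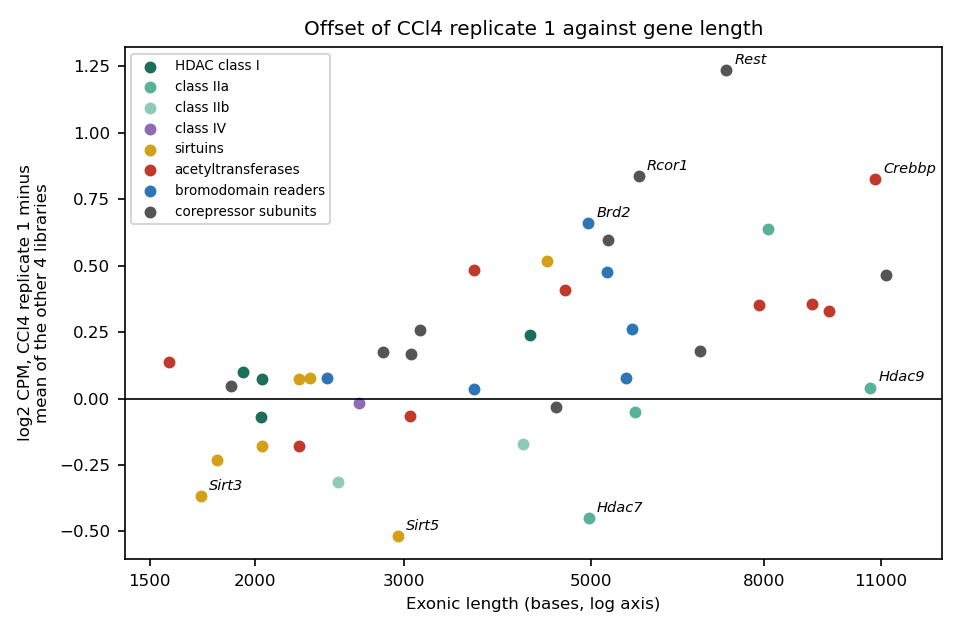
Offset of CCl4 replicate 1 from the mean of the other 4 libraries, in log2 CPM, against exonic length on a log axis for the 43 genes, coloured by role. Longer genes lie higher (Spearman's rho 0.59), with Rest at 1.23, Crebbp at 0.83 and Sirt5 at -0.52.

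Further genes of the same pathways were not called with all 5 libraries. Of 160 further genes in 7 lists, 152 were tested and 0 passed edgeR's adjusted threshold. At an unadjusted p under 0.05 were 5 higher and 3 lower (5.26% in either direction, all genes 7.45%), and DESeq2 called 0. Over all genes, 3.52% were higher and 3.93% lower at that p. The median log2 fold change was -0.07. CCl4 replicate 1 was the highest of the 5 libraries for 74 of the 152, and for 18 of 25 further bromodomain and YEATS readers. Without it (a fit added after seeing the data) 3 of the 152 were called, against 1.75% of all genes, namely Tdo2, Klf2 and Acat2. Fitted values were then lower for 67 and higher for 85, and the median turned from -0.07 to 0.057. At an unadjusted p under 0.05 there were 12.5%, against 15.9% of all genes. By list, the medians without that library were 0.13 for acetyltransferase complexes, 0.083 for readers, 0.081 for corepressors, -0.065 for acetyl-CoA supply, -0.16 for NAD, -0.052 for class IIa partners and 0.12 for inhibitor-raised genes.

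With all libraries, partners of the writers, readers and corepressors had medians close to 0. Of 38 tested acetyltransferases and complex subunits, 25 had a lower fitted value (median -0.05). Ing4, an adaptor of the Kat7 complex, led them at 23.7, 21.5 and 22.9 CPM in the CCl4 group, against 28.3 and 29.5 CPM after givinostat, followed by Tada2a with a log2 fold change of -0.43 ± 0.24 (SE). Among 25 tested readers, 17 lay lower (median -0.08), led by Atad2 and Brdt at -0.56 ± 0.30 and -0.68 ± 0.38 (SE). Among 39 tested corepressor subunits, 24 lay lower (median -0.06). There the Sin3 subunit Brms1 had the smallest p, at 24.7, 23.9 and 28.1 CPM in the CCl4 group, against 34.7 and 31.8 CPM after givinostat, and Sap130 followed at -0.31 ± 0.17 (SE). Ing4 and Brms1 had edgeR adjusted p-values of 0.666 and 0.643, and both were higher in each givinostat library than in any CCl4 library. Without CCl4 replicate 1, only 15 of the 38, 9 of the 25 and 14 of the 39 genes had a lower fitted value.

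Genes that supply or use acetyl-CoA and NAD were not called with all 5 libraries. Acly, which makes acetyl-CoA from citrate outside mitochondria, was at 73.7, 66.0 and 62.6 CPM in the CCl4 livers, against 44.3 and 48.3 CPM in the givinostat livers (log2 fold change -0.54 ± 0.15, SE, edgeR adjusted p = 0.401). Acot12, which hydrolyses acetyl-CoA, had a higher fitted value, at 167, 141 and 129 CPM against 221 and 190 CPM (0.50 ± 0.16, SE, edgeR adjusted p = 0.503). Acat2, a cytosolic thiolase that joins acetyl-CoA units, is named after its values were seen, and was at 27.0, 41.4 and 39.8 CPM against 26.5 and 25.1 CPM. Its difference was -0.48 ± 0.21 in log2 (SE, edgeR adjusted p = 0.672), and -0.65 ± 0.13 without CCl4 replicate 1 (edgeR adjusted p = 0.0437). The acetyl-CoA list had 5 of 12 fitted values higher and a median of -0.08. On the NAD list, 5 of 14 were higher (median -0.07). Without CCl4 replicate 1, the numbers higher on these lists were 5 of 12 and 4 of 14. Qprt, of NAD synthesis from tryptophan, was at 140.0, 156 and 128 CPM across CCl4 replicates 1 to 3, then 101 and 88.1 CPM under givinostat (edgeR adjusted p = 0.387). Tdo2, which opens the tryptophan ring at the head of that route, was at 1711, 1283 and 1103 CPM against 2222 and 2134 CPM (log2 fold change 0.67 ± 0.20, SE, edgeR adjusted p = 0.458). Without CCl4 replicate 1 it passed the threshold (0.87 ± 0.17, SE, edgeR adjusted p = 0.0409), and Acly, Acot12 and Qprt did not, with edgeR adjusted p-values of 0.108, 0.0721 and 0.0933. Qprt and Tdo2 thus lay on opposite sides, each without overlap.

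Partners of class IIa deacetylases had 14 of 16 fitted values lower and a median of -0.19, with 5 lower without overlap (31.3%, all genes 11.7%). CCl4 replicate 1 was the highest of the 5 libraries for 11 of these 16 genes (all genes 28.2%). Without it 9 of 16 lay lower, the median was -0.052, and 7 were lower without overlap (43.8%, all genes 23.5%). The smallest p-values belonged to Mef2c, a transcription factor bound by class IIa enzymes, at 2.80, 4.76 and 5.14 CPM against 1.67 and 3.46 CPM, and to the kinase gene Sik1. Sik1 stood at 163, 67.0 and 32.0 CPM in the CCl4 group, while givinostat livers had 38.2 and 49.6 CPM, so CCl4 replicate 1 was again the high library. The log2 fold change of Sik1 was -0.99 ± 0.57 (SE), and -0.17 ± 0.28 without that library (edgeR adjusted p = 0.81). Of 8 genes that deacetylase inhibitors are known to raise in cultured cells, 5 had a higher and 3 a lower fitted value (median 0.08). The numbers were again 5 and 3 without CCl4 replicate 1. Txnip, an inhibitor of thioredoxin, was at 77.1, 80.7 and 143 CPM in the CCl4 livers, against 197 and 193 CPM in the givinostat livers (log2 fold change 0.96 ± 0.26, SE, edgeR adjusted p = 0.387). Klf2, a transcription factor of endothelial cells, was at 17.3, 31.0 and 33.3 CPM against 11.2 and 14.7 CPM (-1.07 ± 0.30, SE, edgeR adjusted p = 0.401). The groups did not overlap for either gene. Without CCl4 replicate 1, Klf2 passed the threshold (-1.31 ± 0.17, SE, edgeR adjusted p = 0.00864) and Txnip did not (0.80 ± 0.23, SE, edgeR adjusted p = 0.122). Endothelial markers, whose sums are given beside Hdac7, were lower with givinostat for 9 of 10 in that fit too, 2 of them without overlap. Macrophage markers were lower there for 10 of 10, with 9 of them without overlap. The shares without overlap were 20 and 90%, and 23.5% of all genes were lower without overlap. The part of either cell type in Klf2 was not tested.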

How the data were processed

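Libraries were made from total RNA of frozen liver with an Illumina TruSeq kit, according to the labels. The authors deposited raw read counts per gene symbol, as 1 table of 24834 rows a library. Bowtie 0.12.2 is listed in the submitters' processing notes, as are mm8 and mm10 without their roles. How reads were assigned to genes, and whether by strand, is not given in the sources, so reads of overlapping genes or close paralogs may be misassigned. Left out were 26 rows whose symbol had become a date (0.144 to 0.169% of counts). All pairs of libraries differed by more than sampling noise.

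The test was edgeR 4.0.16 under R 4.3.3 (filterByExpr defaults, TMM scaling, quasi-likelihood test, treatment as the only term, 3 residual degrees of freedom). A gene was called when its p, adjusted by Benjamini-Hochberg over 13590 genes, was under 0.05. CPM used TMM-scaled library sizes, and log2 CPM a prior count of 2. Levels per kilobase divide by the union of exons in GENCODE M21 basic (GRCm38), matched by symbol. Intervals use the moderated degrees of freedom of the fit. The common biological coefficient of variation was 20.0%. On simulated counts for this comparison over 13370 genes, 88.4% of 112 genes with a 4-fold change were called, as were 40% of 85 with a 2-fold change.

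Members and lists were chosen with earlier results of these data known. Values in every library are given for members at an unadjusted p under 0.05, for the 2 smallest p-values and the highest and lowest level per kilobase of each role, and of each further list the 2 genes with the smallest p are named. Others, such as Hdac1, Rcor1, Sin3a and Ncor1, were named after their values were seen. Of the 160 further genes, 1 was not found under its symbol. Alternatives were RLE scaling, other filters, the replicate number as a block, DESeq2 1.42.0 and each library left out.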

Additional observations from a re-analysis of the deposited data

How the results depend on the processing

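No setting called any of the 43 genes after adjustment over all genes. The number of all genes called was 1 with RLE scaling, 38 with no low-count filter, 0 when 10 counts were required throughout a group, 148 with DESeq2, and 0 to 235 with each library left out, where 235 came without CCl4 replicate 1 and 0 without any other library. Members at an unadjusted p under 0.05 numbered 0 to 5 with each library left out. Without CCl4 replicate 1 these were Hdac11, Kat7, Hdac9, Hdac7 and Mta3. Members with lower, non-overlapping groups numbered 12 without CCl4 replicate 1 (an alternative added after seeing the data), where fewer libraries make overlap rarer (23.5% of all genes). The median of the members lay between -0.14 and -0.03 under all settings. Replicate numbers are not stated to pair mice, and the deviations of same-numbered libraries correlated at -0.15 and -0.08. With the replicate block, 145 genes and 0 members were called, 0 members were at an unadjusted p under 0.05, and Sirt1, Sirt5 and Sirt7 changed sign to -0.069, 0.053 and 0.053. The remaining tools and filters changed no sign. Leaving out each library in turn moved the log2 fold change across 0 for 26 members, none of them called. The ranges were -0.016 to 0.22 for Hdac3, -0.32 to 0.29 for Hdac4, -0.15 to 0.12 for Hdac5, -0.064 to 0.20 for Hdac10, -0.12 to 0.30 for Sirt1, -0.044 to 0.61 for Sirt3, -0.45 to 0.055 for Sirt4, -0.38 to 0.046 for Sirt5, -0.087 to 0.42 for Sirt6, -0.098 to 0.0797 for Sirt7, -0.20 to 0.091 for Kat2b, -0.11 to 0.15 for Kat5, -0.29 to 0.021 for Kat6a. Further ranges were -0.14 to 0.12 for Kat6b, -0.092 to 0.44 for Kat7, -0.076 to 0.13 for Kat8, -0.16 to 0.059 for Ep300, -0.48 to 0.12 for Crebbp, -0.40 to 0.0035 for Brd3, -0.15 to 0.15 for Ncor1, -0.26 to 0.14 for Sin3a, -0.046 to 0.17 for Sin3b, -0.39 to 0.22 for Rcor1, -0.16 to 0.013 for Mta1, -0.0797 to 0.12 for Mta2, -0.50 to 0.50 for Rest. The cause was not tested. The highest and lowest level of each role stayed with the same genes when the longest transcript replaced the union of exons, also tried after seeing the data. With 3 and 2 libraries 40% of simulated 2-fold changes were called, over genes of all levels and with no library that stood apart. A p that misses the threshold does not show that levels were alike.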
